A study of Homo sapiens with 2 samples.

Results

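The genes described here encode 8 proteins of the machinery that releases transmitter from synaptic vesicles: SYP, SYN1, SYT1, STX1A, VAMP2, SNAP25, RAB3A and CPLX1. The rule names them by symbol and sets no threshold on their level, and each symbol matched a row in the expression tables of both replicates, so that 8 of 57736 genes were taken. The samples were 2 replicates of HEK293T, a human line derived from embryonic kidney cells and carrying the SV40 large T antigen, labelled wild type and left untreated. Poly(A)+ RNA was sequenced on an Illumina HiSeq with 50-base reads. The design holds a single group, so no condition was compared, and the levels below are those of the unstimulated line. The labels call the samples replicas without naming separate cultures, so the spread between them may be technical. The p-values measure only how far the 2 libraries depart from counting error.

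In a nerve terminal, vesicles are loaded with transmitter, held near the release site and fused with the plasma membrane when calcium enters. Fusion is driven by SNARE proteins on the facing membranes: synaptobrevin (VAMP) on the vesicle pairs with syntaxin and SNAP-25 on the plasma membrane. Synaptotagmin senses calcium, complexin binds the assembled SNARE bundle, RAB3 guides vesicles to the release site and synapsin ties vesicles into a reserve pool. Related SNAREs act in membrane traffic in cells of every kind, whereas many neuronal release genes are repressed outside neurons by REST, a zinc-finger factor that binds a DNA element called RE1.

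The deposited tables summed to 10593491 estimated counts in replicate 1 and 10104118 in replicate 2. Levels are given as TPM, a share of all transcripts in which each gene's count is divided by its transcript length, and a gene was called detected where each replicate reached 1 TPM. By this rule 27.7% of all genes and 63.7% of protein-coding genes were detected. The replicates differed in 3.88% of the 17920 genes tested (exact binomial test, Benjamini-Hochberg adjusted over all of them), which shows the spread between the libraries, since no treatment separates them. Kidney epithelium markers were largely missing: 2 of 13 were detected, LRP2 at 9.12 ± 1.19 TPM (SD, n = 2) and PAX2 at 3.41 ± 1.32 TPM, while UMOD, AQP2, SLC12A3, SLC34A1 and CDH16 had 0 counts in both replicates. Of 11 neuron markers with a row, 6 were detected, among them UCHL1 at 253 ± 3.36 TPM, INA at 22.4 TPM and NEFM at 10.5 TPM, and STMN2 had 0 counts. Of 8 neuroendocrine granule markers 2 were detected, CPE at 48.0 ± 1.98 TPM and SCG5 at 1.04 TPM. Most defining markers of kidney epithelium were thus below the threshold in these libraries, and those of neurons fell on both sides of it.

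Of the 8 release genes, 7 were detected. VAMP2 stood highest, RAB3A and STX1A followed, SYP, SYT1 and CPLX1 lay lower, SYN1 was close to the detection threshold, and SNAP25 had a single count in the entire data set. The 8 genes together summed to 85.13 TPM in replicate 1 and 79.61 TPM in replicate 2 (82.4 ± 3.90, SD, n = 2). VAMP2 alone made up 43.5% of that sum in replicate 1 and 42.1% in replicate 2. The median level of the members was 7.73 TPM, beside 6.5 TPM over all protein-coding genes.

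**Figure D1:**
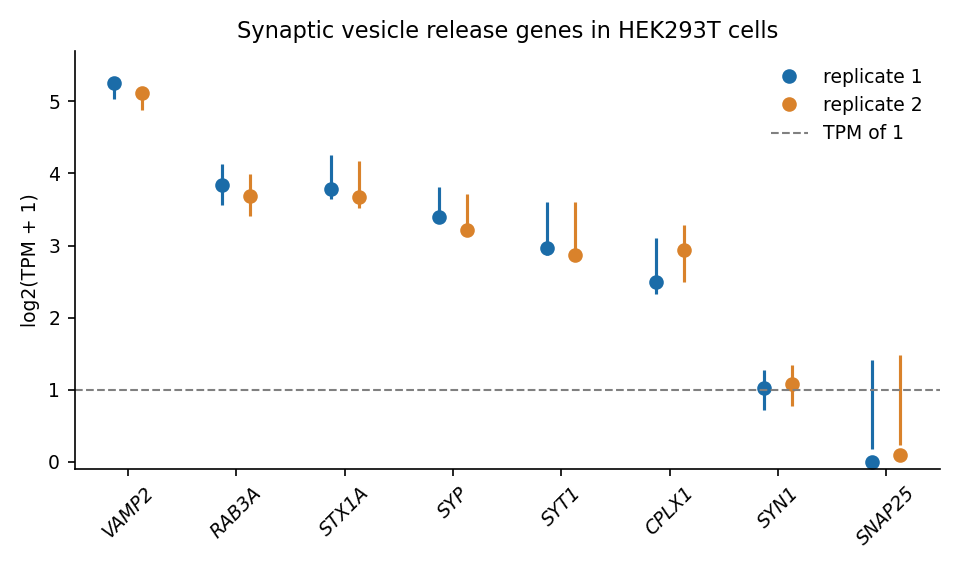
Level of each release gene as log2(TPM + 1) in both replicates of HEK293T cells (1 point per replicate, dashed line at 1 TPM), with bars for the 95% interval that the quantification deposited for each replicate. VAMP2 lies alone at 33.49 to 37.0 TPM, the points of RAB3A and STX1A interleave, SYN1 sits at about 1 TPM, and SNAP25 has TPM values of 0 and 0.07 that lie below its deposited intervals.

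Some members have close matches to RE1 near their starts, shown here because they are the only ones found among the members. The genes that hold them, SNAP25, SYN1 and SYP, ranged from not detected to the fourth highest level. The letters TTCAGCACC and GGACAG, with a gap of 2 bases of any kind, were searched on both strands of GRCh37 within 5000 bp of the start of each gene's canonical transcript, allowing up to 2 mismatches over the 15 fixed letters. Of the 8 members, 3 held a match, SNAP25 with a pair of sites and SYN1 and SYP with 1 each. The sites are printed 5′ to 3′ in the orientation of the motif with 6 bases of flank on either side, and capitals mark bases that match the motif.
SNAP25, no mismatch: cgacctTTCAGCACCggGGACAGcggtcc
SNAP25, 2 mismatches: cccgcgcTCAGCACCctGGAtAGcaacac
SYN1, no mismatch: gccagcTTCAGCACCgcGGACAGtgcctt
SYP, 1 mismatch: acgcgcTcCAGCACCgtGGACAGagcccg

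The SNAP25 site without a mismatch lies at chr20:10200314-10200342 on the plus strand, 850 bp downstream of the canonical start in an intron. Its second site lies just before it at chr20:10200263-10200291, 799 bp downstream and in the same intron. The SYN1 site is at chrX:47479467-47479495 on the minus strand, 225 bp upstream of the start. The SYP site is at chrX:49056579-49056607 on the minus strand, 59 bp downstream and intronic. No match was found in the windows of SYT1, STX1A, VAMP2, RAB3A or CPLX1, which says only that these letters are not there at this stringency.

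Across the genome, 1049 of 19110 protein-coding genes (5.49%) held such a match, and 57 held one without a mismatch, SNAP25 and SYN1 among them. Of the 57, 10 were detected (17.5%), with a median of 0.1 TPM. Of the 1049 genes with any match 582 were detected (55.5%, median 2.05 TPM), and of the 18061 genes without a match 11687 (64.7%, median 7.16 TPM). REST itself was present at 22.30 and 28.43 TPM (808 and 890 counts), and its corepressor RCOR1 at 27.4 ± 0.361 TPM. All 8 genes of the list of REST and its corepressors were detected, with HDAC2 at 243 TPM, HDAC1 at 219 TPM and KDM1A, a histone demethylase, at 140 TPM. A letter match is a description and not a bound site, and the part of REST in the members' levels was not tested.

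VAMP2 (ENSG00000220205, chr17:8062467-8066864, minus strand) encodes synaptobrevin 2, the vesicle SNARE of fast release. It had 524 and 455 estimated counts, giving 37.0 TPM in replicate 1 and 33.49 TPM in replicate 2 (35.2 ± 2.48, SD, n = 2). This placed it at the 78.1 percentile of protein-coding genes, rank 4238 of 19391. The 95% intervals deposited with these TPM values, 31.6 to 38.9 and 28.4 to 35.2, did not reach those of any other member. VAMP2 was the member with the most reads and 32.8-fold above SYN1, the lowest detected one, in mean TPM.

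VAMP2 was not the highest VAMP in these cells. VAMP3 (cellubrevin), the broadly expressed relative that serves endosomal recycling, was at 71.52 and 66.81 TPM (69.2 ± 3.33), so that VAMP3 exceeded VAMP2 by 1.93-fold in replicate 1 and 1.99-fold in replicate 2 (1.96 ± 0.0438). VAMP7, a SNARE of late endosomes and lysosomes, was also above VAMP2 in both replicates, with a mean of 40.9 TPM. VAMP8 at 26.2 TPM, VAMP1 at 11.8 ± 3.97 TPM and VAMP4 at 8.55 TPM were lower in both, and VAMP5 had 0 and 1 counts. VAMP2 carried 18.6% and 18.1% of the summed TPM of these 7 VAMP genes.

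STX1A (ENSG00000106089, chr7:73113536-73134002, minus strand) encodes syntaxin 1A, the plasma membrane partner of synaptobrevin. Its counts of 87.4 and 80.37 gave 12.79 and 11.78 TPM (12.3 ± 0.714, SD, n = 2). Its counts are not whole, although none of its 50-base words was found in transcripts of other genes, and the reason was not tested. STX1A had the largest posterior SD relative to its count of any member, 1.24% in replicate 1 and 1.05% in replicate 2. It ranked 8062 among protein-coding genes, at the 58.4 percentile.

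Of the 14 other syntaxins examined, 11 were detected, and the same 11 lay above STX1A in both replicates. STX12, an endosomal syntaxin, led at 51.4 TPM, followed by STX16 at 45.5 TPM and by STX4, the plasma membrane syntaxin of many non-neuronal cells, at 43.21 and 35.81 TPM. The TPM of STX4 exceeded that of STX1A by 3.38-fold and 3.04-fold (3.21 ± 0.239). Those under the threshold included STX11 with 4 and 10 counts and STX19 with 5 counts in either replicate. STX1A carried 3.60% and 3.56% of the TPM of the 15 syntaxins.

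SNAP25 (ENSG00000132639, chr20:10153043-10288906, plus strand) encodes the plasma membrane SNARE that contributes a pair of helices to the fusion bundle. It had 0 counts in replicate 1 and 1 count in replicate 2, listed as TPM 0 and 0.07. A count of 0 allows a level of up to 0.286 TPM in replicate 1, taken from a floor of 3 counts. The single count of replicate 2 has an exact 95% Poisson interval of 0.0253 to 5.57 counts, or 0.00176 to 0.388 TPM. These limits cover counting error only, and lie below the detection threshold of 1 TPM. The deposited 95% intervals of SNAP25, 0.132 to 1.67 TPM in replicate 1 and 0.174 to 1.80 TPM in replicate 2, reach above it. A deposited interval can lie above 1 TPM without any read, so these are no sign of SNAP25 reads. RPH3A, at 0 counts in both replicates, had intervals of 2.89 to 6.88 and 2.96 to 7.10 TPM. Those of SLC32A1, also at 0 counts, stayed below 1 TPM. With both replicates together SNAP25 was the only member under the 10 summed counts needed for the comparison of replicates.

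Relatives of SNAP25 were abundant. SNAP23, which takes its place in most non-neuronal cells, was at 69.77 and 67.84 TPM (68.8 ± 1.36, SD, n = 2), SNAP47 at 69.1 ± 1.37 TPM and SNAP29 at 40.2 ± 5.59 TPM, so that all 3 relatives were above SNAP25 in both replicates. Summed over both replicates SNAP23 had 887 counts against 1 for SNAP25, a ratio of counts of 887 with an exact 95% interval of 159 to 35074. Divided by the effective lengths, averaged over the replicates, the ratio of the summed counts was 1718, with an interval of 308 to 67945. A share of 22.6% of the 50-base words of SNAP23 also occurs in other transcripts, mostly in the overlapping ENSG00000261684 (0 and 33.67 counts), so the SNAP23 count is less certain than its interval. The plot of members beside their relatives shows the contrast between the plasma membrane SNAREs: STX1A is detected below STX4, and SNAP25 is not detected.

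**Figure D2:**
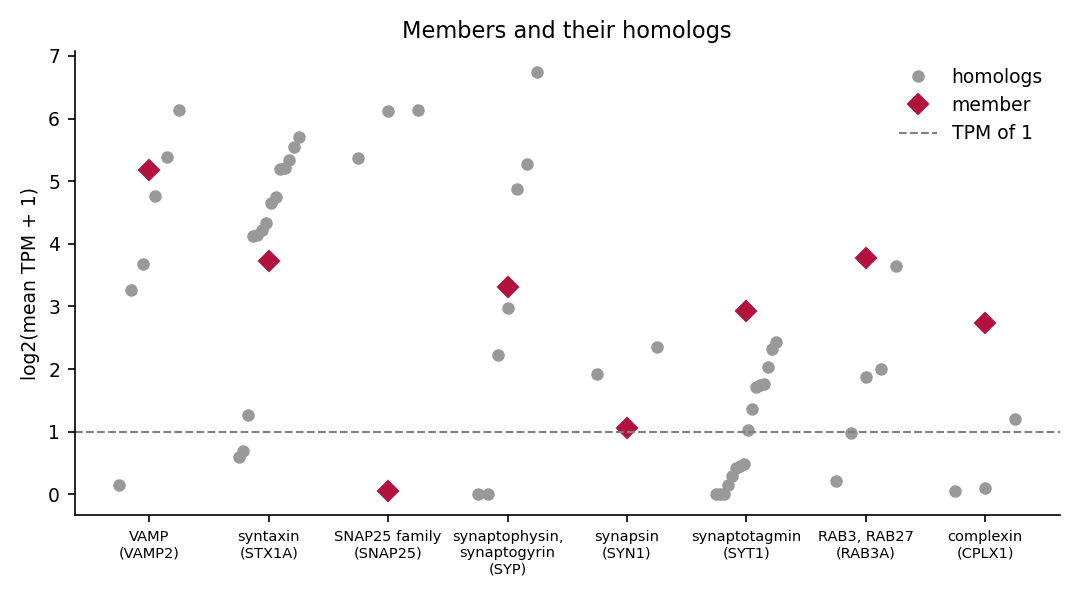
Level of each release gene (red diamonds) and of the other listed genes of its family (grey circles), as log2(mean TPM + 1) over the 2 replicates, with a dashed line at 1 TPM. VAMP2, SYP and STX1A lie below some relatives, SNAP25 and SYN1 lie below all of theirs, and SYT1, RAB3A and CPLX1 lie above all of theirs.

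SYT1 (ENSG00000067715, chr12:79257773-79845788, plus strand) encodes synaptotagmin 1, the calcium sensor of fast synchronous release. It had 122 and 130 counts and 6.84 and 6.30 TPM (6.57 ± 0.382, SD, n = 2), near the middle of protein-coding genes at the 50.1 percentile. SYT1 was higher in TPM than each of the 16 other synaptotagmins examined, in both replicates. Of these 16, 7 were detected, led by SYT15 at 4.38 ± 0.445 TPM, SYT5 at 3.97 TPM and SYT3 at 3.07 TPM, with SYT6 lowest at 1.57 TPM. SYT4, SYT8 and SYT10 had 0 counts, and SYT2, a fast sensor like SYT1, lay at the threshold with 1.07 and 0.99 TPM. SYT1 carried 22.5% and 22.8% of the TPM of the family.

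CPLX1 (ENSG00000168993, chr4:778745-819917, minus strand) encodes complexin 1, which binds the SNARE bundle and both restrains and promotes fusion. Its counts were 73 and 74, yet its TPM was 4.64 in replicate 1 and 6.66 in replicate 2 (5.65 ± 1.43, SD, n = 2), the widest relative spread among the detected members. The log2 ratio of replicate 2 to replicate 1 was 0.10 for the scaled counts and 0.52 for the TPM. The transcript length assigned to CPLX1, an average weighted by the transcripts inferred, was 2155.38 bases in replicate 1 and 1594.88 in replicate 2. The log2 ratio of its effective lengths, the bases at which a read can start, was −0.45, so most of the difference in TPM lay in the length and not in the count. No other complexin was detected: CPLX2 had 10 and 13 counts (0.68 and 1.91 TPM), CPLX3 had 0 and 2 counts and CPLX4 had 1 and 0. CPLX1 held 86.1% and 76.5% of the TPM of the 4 complexins.

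RAB3A (ENSG00000105649, chr19:18307594-18314852, minus strand) encodes the small GTPase that associates with synaptic vesicles in its GTP-bound form. It had 131.6 and 115 counts and 13.32 and 11.91 TPM (12.6 ± 0.997, SD, n = 2), at the 58.8 percentile of protein-coding genes. Among RAB3 and RAB27 genes it was the highest in each replicate, but the replicate ranges met those of RAB3D, at 13.20 and 9.95 TPM. RAB3B followed at 3.02 TPM and RAB27A at 2.67 TPM, RAB3C was just under the threshold at 0.96 and 0.98 TPM, and RAB27B had 3 and 4 counts. A stretch of 165 exonic bases of RAB3A is shared with MPV17L2 on the opposite strand (338.4 and 312 counts). The sources used here do not give the strand setting of the counting, so reads of that stretch cannot be told apart.

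SYP (ENSG00000102003, chrX:49044268-49056677, minus strand) encodes synaptophysin, an abundant membrane protein of synaptic vesicles and a common neuroendocrine marker. It had 165 and 128 counts and 9.51 and 8.28 TPM (8.90 ± 0.870, SD, n = 2), at the 53.8 percentile. It holds one of the RE1-like sites printed above. SYPL1, its relative outside neurons, was at 39.44 and 35.56 TPM and thus 4.15-fold and 4.29-fold above SYP (4.22 ± 0.104). SYNGR2 (cellugyrin) was at 106 ± 2.55 TPM and SYNGR1 at 28.4 ± 2.04 TPM, while SYPL2 at 6.87 TPM and SYNGR3 at 3.67 TPM were below SYP in both replicates. SYNPR and SYNGR4 had 0 counts.

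SYN1 (ENSG00000008056, chrX:47431300-47479256, minus strand) encodes synapsin 1, the phosphoprotein that clusters the reserve pool of vesicles. It had 24 and 25 counts and 1.03 and 1.12 TPM (1.08 ± 0.0636, SD, n = 2), at the 35.4 percentile. This is just inside the threshold of 1 TPM, and its deposited 95% intervals, 0.646 to 1.43 and 0.712 to 1.53 TPM, reach below it. SYN2 was higher at 4.09 ± 0.148 TPM, and so was SYN3, whose 23 and 19 counts gave 4.06 and 1.53 TPM on transcript lengths of 808 and 1782 bases. A share of 23.3% of the 50-base words of SYN1 also lies in ENSG00000283743, a long non-coding RNA on the same strand that has no row here, so the origin of part of its reads is uncertain. An intron of SYN1 holds TIMP1 on the opposite strand (564 and 525 counts), which shares no exonic bases with it.

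The order of the members was only partly resolved. VAMP2 lay above RAB3A, and CPLX1 above SYN1, by both the replicate values and the deposited intervals. RAB3A and STX1A overlapped in their replicate values. STX1A and SYP, and SYP and SYT1, were separated by their replicate values but not by their intervals. SYT1 and CPLX1 changed places between replicates. SYN1 and SNAP25 were separated by their TPM values while their deposited intervals overlapped. The posterior means of SNAP25 were 0.78 and 0.87 TPM against listed values of 0 and 0.07. Intervals above 1 TPM also occurred at 0 counts, as in RPH3A, so this overlap says little about the reads of SNAP25. No test was made between genes, and the order is a description.

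None of the 7 members with at least 10 summed counts differed between the replicates, beside 3.88% of all genes tested (exact binomial test, Benjamini-Hochberg adjusted over 17920 genes). None had an unadjusted p under 0.05 either. The largest difference was that of SYP, with a log2 ratio of scaled counts of −0.29 for replicate 2 over replicate 1, an exact p of 0.0904 and an adjusted p of 0.494. For the other 6 the log2 ratio ran from −0.13 in VAMP2 to 0.17 in SYT1. The TPM was higher in replicate 1 for 5 members and in replicate 2 for 3, among them SNAP25 with its single count.

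**Figure D3:**
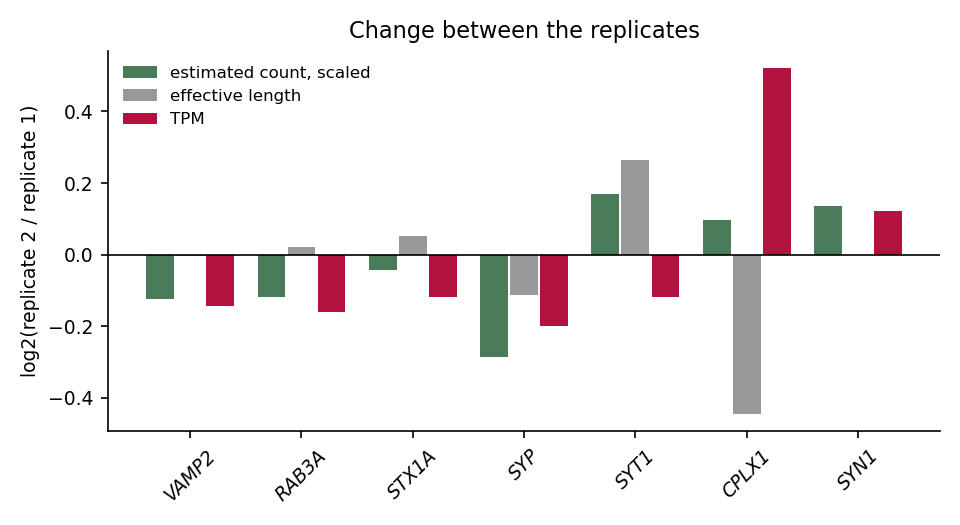
Log2 ratio of replicate 2 to replicate 1 for the 7 detected release genes, drawn as bars for the scaled count, the effective length and the TPM. The CPLX1 bars part most, with 0.10 for the count, −0.45 for the length and 0.52 for the TPM, whereas the lengths of VAMP2, RAB3A and SYN1 stay close to 0.

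The length that was divided out moved more than the reads in some members. Between replicates the transcript length changed by 35.1% in CPLX1, by 19.7% in SYT1 and by 7.89% in SYP, but by 0.369% in VAMP2 and not at all in SYN1. A change above 10% occurred in 2 of the 7 detected members, beside 26.9% of all detected genes. In SYT1 replicate 2 had the larger count (130 against 122) but the smaller TPM (6.30 against 6.84), on lengths of 2919.47 and 2439.64 bases. Which transcripts were used in either replicate was not analysed here.

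The gene counts of the members had small posterior SDs. In 4 members the posterior SD of the count was 0 in both replicates, and in no member did it pass 1.24% of the count. The share of 50-base words found in transcripts of other genes was 0 for STX1A and CPLX1, 0.112% for SYT1, 2.29% for SYP, 3.71% for SNAP25, 6.34% for RAB3A, 10.2% for VAMP2 and, as above, highest for SYN1. For VAMP2 the shared words lie in ENSG00000263620 on the same strand, which had 0 counts.

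The wider release pathway was detected unevenly by step. Vesicle recycling was complete, with 14 of 14 genes, led by DNM2, the broadly expressed dynamin, at 117 ± 3.71 TPM, SH3GL1 (an endophilin) at 99.2 ± 3.32 TPM and PICALM, a clathrin adaptor, at 76.3 ± 3.12 TPM, with SH3GL2 lowest at 1.68 TPM. SNARE assembly and disassembly followed with 13 of 14 genes and a median of 21.0 TPM. NAPA and NSF, which take spent SNARE bundles apart, were at 94.2 ± 6.27 and 52.1 ± 7.80 TPM, the vesicle chaperone DNAJC5 was at 44.6 ± 3.01 TPM, STXBP6 was lowest of those detected at 1.94 TPM, and SNCG had 0 and 2 counts.

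Priming, tethering and active zone genes were detected in 18 of 26 cases, beside 63.7% of all protein-coding genes, with a median of 5.05 TPM. The highest were PPFIA1 (liprin alpha 1) at 59.6 ± 5.85 TPM and the RAB3 GTPase-activating subunits RAB3GAP2 at 32.5 TPM and RAB3GAP1 at 30.8 TPM, which regulate RAB3 proteins. RIMS2, a scaffold that binds RAB3, lay at the threshold with 1.13 and 1 TPM on 15 and 17 counts. RIMBP2 and RPH3A had 0 counts. Of the genes for vesicle membrane proteins and transmitter loading 3 of 10 were detected: SV2A at 13.8 ± 0.983 TPM, the monoamine transporter SLC18A2 at 4.37 ± 0.148 TPM and the glutamate transporter SLC17A7 at 1.35 TPM. SLC17A6, SLC18A1 and SLC32A1 had 0 counts. None of the 3 pore subunits of presynaptic calcium channels was detected, and CACNA1A had 0 counts.

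**Figure D4:**
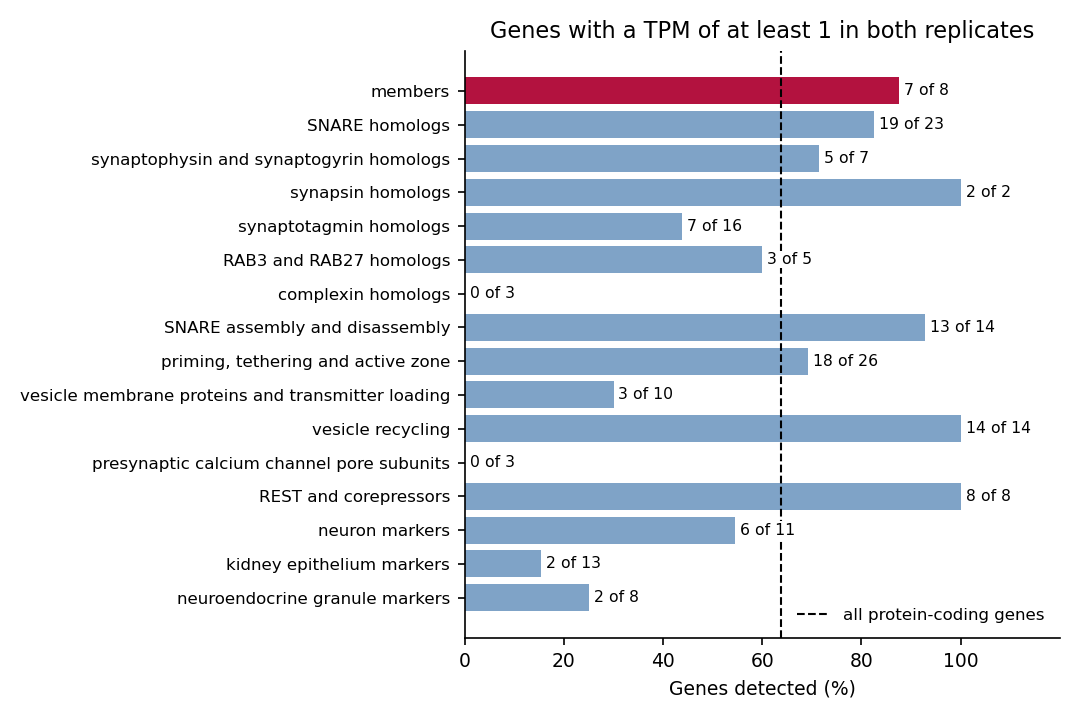
Share of genes detected (TPM of at least 1 in both replicates) in each gene list, with the number detected of the number measured, and a dashed line at the 63.7% of all protein-coding genes. The bar for the 8 release genes stands at 7 of 8, recycling at 14 of 14, calcium channel pores at 0 of 3 and transmitter loading at 3 of 10.

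Relatives of the members were detected in 36 of 56 cases, close to the 63.7% of all protein-coding genes, and 5 had 0 counts in both replicates. In 4 families the member was paired with its broadly expressed relative (VAMP2 with VAMP3, STX1A with STX4, SNAP25 with SNAP23, SYP with SYPL1), and the relative was higher in both replicates in 4 of 4 pairs. These pairs were chosen with the levels known, so the count is a description. Of the relatives 2 differed between the replicates: VAMP7 with 613 and 699 counts (log2 ratio 0.27, adjusted exact p = 0.0266) and RAB3D with 390 and 290 counts (log2 ratio −0.35, adjusted exact p = 0.0487). Among the other listed genes 24 held an RE1-like site, neuron and neuroendocrine granule markers among them. Of these 24, 8 were detected, beside 102 of all 163 listed genes with a row other than members, a set that includes the 24. Of all protein-coding genes with a match, 55.5% were detected. INA, MADD and DNM1, the highest of the 24, were at 22.4, 27.1 and 27.3 TPM, and were named after their values were seen. RE1-like sites occurred in detected and in undetected genes of the lists, as in SYP and SNAP25.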

How the data were processed

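Poly(A)+ RNA of 2 HEK293T replicates was quantified by the authors. The submitters' processing notes name Trimmomatic 0.36, STAR 2.6.1c and RSEM 1.3.1 on GRCh37 (hg19), and the deposited columns are those of RSEM, although the methods name featureCounts. The sources used here do not give the strand setting. The deposited tables give per gene an expected count made by RSEM from the aligned reads, a TPM, an FPKM, their posterior means, SDs and intervals, a coefficient of quartile variation as a score, and transcript lengths in bases. A pooled table deposited by the authors was used only to compare summed counts: for 8 of 8 members the difference was under 1 count.

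Symbols and coordinates came from GENCODE 44 on GRCh37, in which 96.1% of gene IDs matched. NEFL is not analysed here, and not all listed genes are reported by name. Expected counts were rounded, scaled by TMM (edgeR 4.0.16, R 4.3.3) and, for genes with at least 10 summed counts, compared between replicates by a two-sided exact binomial test (scipy 1.17.1) with a threshold of 0.05 after Benjamini-Hochberg adjustment. It assumes counting error only, whereas the median chi-square between the replicates was 0.736 over 5640 genes, beside 0.455 for counting error alone, and the edgeR biological coefficient of variation between the replicates was 0.0454. The test was also run on simulated counts drawn with counting error alone. That run cannot show how the test behaves at the wider spread of these replicates. A log2 ratio used a prior count of 0.5. Matches were searched with 50-base words of GENCODE 44 transcripts on either strand.

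Named genes were all members, and were otherwise drawn from their relatives and, in each further list, from the 3 highest, the lowest detected and those at 0 counts, plus REST, RCOR1 and NSF. Others are marked. Members and lists were chosen with earlier results of these data known. Alternatives were another scaling, other filters and units, and each replicate left out.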

Additional observations from a re-analysis of the deposited data

How the results depend on the processing

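The count of members detected was 7 under most settings, 5 at a minimum of 5 TPM and 6 with FPKM of at least 1. The summed level of the 8 genes, 82.4 ± 3.90 TPM, moved to 118 when TPM was rescaled over protein-coding genes, to 87.7 with posterior mean TPM and to 58.3 in FPKM. The order of members was the same under FPKM and the rescaled TPM, and with posterior mean TPM STX1A passed RAB3A. Leaving out either replicate, the sum ran from 79.6 to 85.1, the members detected from 7 to 7 and the pairs with the relative higher from 4 to 4. No member differed between replicates under any scaling or filter, and 0 had an unadjusted p under 0.05, while the genes called ran from 506 to 752 around 696. Scaling by relative log expression used edgeR. The coefficient of variation of 0.0454 was 0.0455 under that scaling and 0.0469 without a filter. No paired analysis was possible because there is only 1 group. Depth limits SNAP25 and SYN1, whose counts are 25 or fewer, and with 2 replicates an SD is itself uncertain.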
